A study of Homo sapiens with 8 samples.

Results

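Gene deserts are long stretches of a chromosome that hold no protein-coding gene. Here the peaks of accessible chromatin in such stretches were described for chromosomes 1 to 12 and 14 to 22. Each chromosome was divided into windows of 1 Mb from position 0, and a peak belonged to a desert window when its midpoint lay in a window that no RefSeq protein-coding gene overlaps. By this rule 4793 of the 129536 peaks in the table were desert peaks, which is 4.04% of the 118587 peaks on those chromosomes. They lay in 246 windows with at least 1 peak, and a further 96 windows without a coding gene held no peak. The rule used gene positions and no measured signal.

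Accessible chromatin had been mapped in HEK293 cells by ATAC-seq, which tags the DNA that a transposase can reach. HEK293 is a line from human embryonic kidney. The genotype label of every library, controls included, is eGFP-YAP, a fluorescently tagged form of the YAP protein, whereas the library names read wt. In 4 libraries the cells had received vehicle, and in 4 they had received sorbitol at 200 mM for 1 h. Sorbitol draws water out of cells (hyperosmotic stress). The time of 1 h is labelled for the sorbitol libraries only, and the vehicle libraries carry a label of no elapsed time. A vehicle treatment of equal duration can therefore not be assumed, and the labels do not separate sorbitol from time. The labels give no clone number and do not say whether replicates were separate cultures, so p-values measure the spread between these libraries. Total counts in peaks ran from 11522266 to 19831471 per library, and desert peaks held 380521 to 476974 of them. Of 6 embryonic kidney or neural genes that this line is known to use, 5 had a peak at a gene end, and PAX2 had none. Of 6 genes of other cell types, COL1A1 (fibroblasts, 21.9 CPM) and PTPRC (leukocytes, 1.16 CPM) had one, while CD3E, ALB, DES and KRT5 had none.

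Deserts are poor in promoters. The open sites found there are mostly far from any gene start, and some are known as long-range enhancers, often of developmental regulators that border a desert. Long non-coding RNA genes also lie in deserts and can have promoters of their own. The stretches around centromeres and the short arms of the acrocentric chromosomes hold repeated satellite and ribosomal DNA, whose near-identical copies make the placing of short reads uncertain.

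The desert peaks fell into 4 kinds, a division made after the data had been seen. Stretches of at least 2 Mb without any RefSeq gene, which hold the centromeres, contained 1537 peaks (32.1%), 924 of them on chromosome 1. The window from 8 to 9 Mb of chromosome 21, which holds copies of the 45S ribosomal RNA gene, contained 87. Another 89 lay among antigen receptor gene segments, which RefSeq does not class as protein-coding: 41 in the immunoglobulin heavy chain locus on chromosome 14, 33 in the kappa light chain locus on chromosome 2 and 15 on chromosome 22. The other 3080 peaks (64.3%), in 202 windows, are called arm desert peaks. Their median distance to the nearest coding gene was 737 kb. This kind is what the others left, so it also holds peaks beside the long gene-free stretches. Such peaks lie in the run at 26 to 30 Mb of chromosome 20 (62 peaks, 16 of them in a gene-free stretch). They also lie in the run at 1 to 15 Mb of chromosome 22 (59 peaks, 0 in such a stretch).

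Few desert peaks sat on a promoter: RefSeq promoter windows, running from 250 bases before to 50 bases after a gene start, overlapped 30 arm desert peaks, all of non-coding genes. Some of those under peaks that changed are shown as examples of a difference in base composition (RefSeq, GRCh38.p14; written 5′ to 3′, every CG in capitals). They are 3 of the 8 windows under lower peaks and 3 of the 4 under higher peaks, and were chosen after the data had been seen. Of the following windows, the first 3 lay under peaks that were lower after sorbitol, the next 3 under peaks that were higher, and the last under a peak that was not called.
LINC00662, chr19:27793891-27794190, minus strand: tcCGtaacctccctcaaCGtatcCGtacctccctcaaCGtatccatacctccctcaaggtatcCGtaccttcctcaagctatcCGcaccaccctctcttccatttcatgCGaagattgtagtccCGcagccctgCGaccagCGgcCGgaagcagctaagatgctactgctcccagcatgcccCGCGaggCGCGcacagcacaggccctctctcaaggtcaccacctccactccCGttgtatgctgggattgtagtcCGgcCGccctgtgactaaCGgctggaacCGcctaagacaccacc
LINC02987, chr19:27793645-27793944, plus strand: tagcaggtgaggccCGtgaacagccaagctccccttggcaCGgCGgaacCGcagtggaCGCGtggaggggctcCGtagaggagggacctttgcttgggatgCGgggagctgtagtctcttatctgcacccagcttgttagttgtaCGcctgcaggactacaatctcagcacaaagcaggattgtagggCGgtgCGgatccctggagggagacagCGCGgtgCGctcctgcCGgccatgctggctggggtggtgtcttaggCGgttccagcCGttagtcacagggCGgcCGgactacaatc
LINC01902, chr18:39841459-39841758, plus strand: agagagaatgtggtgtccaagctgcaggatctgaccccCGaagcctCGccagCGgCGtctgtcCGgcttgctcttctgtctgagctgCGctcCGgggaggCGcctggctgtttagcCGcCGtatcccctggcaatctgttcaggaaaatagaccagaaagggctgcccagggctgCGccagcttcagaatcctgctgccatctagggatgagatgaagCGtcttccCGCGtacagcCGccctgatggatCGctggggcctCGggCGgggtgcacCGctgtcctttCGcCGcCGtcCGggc
LETR1, chr15:95327051-95327350, minus strand: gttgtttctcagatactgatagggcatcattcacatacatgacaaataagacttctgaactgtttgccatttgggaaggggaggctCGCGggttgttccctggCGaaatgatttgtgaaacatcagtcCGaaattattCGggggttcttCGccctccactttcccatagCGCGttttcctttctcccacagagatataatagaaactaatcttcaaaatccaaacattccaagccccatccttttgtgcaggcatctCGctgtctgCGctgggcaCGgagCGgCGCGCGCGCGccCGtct
LOC124903582, chr15:95911446-95911745, minus strand: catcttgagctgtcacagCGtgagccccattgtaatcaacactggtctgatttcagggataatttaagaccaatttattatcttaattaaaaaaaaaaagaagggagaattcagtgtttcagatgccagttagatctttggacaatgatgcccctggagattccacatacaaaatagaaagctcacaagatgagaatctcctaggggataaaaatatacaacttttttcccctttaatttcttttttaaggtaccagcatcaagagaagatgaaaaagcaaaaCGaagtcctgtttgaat
MIR99AHG, chr21:16070238-16070537, plus strand: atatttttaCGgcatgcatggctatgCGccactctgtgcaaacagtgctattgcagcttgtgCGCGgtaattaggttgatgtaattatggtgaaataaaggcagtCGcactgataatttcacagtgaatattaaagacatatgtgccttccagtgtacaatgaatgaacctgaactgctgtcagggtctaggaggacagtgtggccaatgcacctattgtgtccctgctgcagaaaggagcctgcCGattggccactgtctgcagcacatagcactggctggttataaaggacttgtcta
LINC03000, chr5:164296455-164296754, plus strand: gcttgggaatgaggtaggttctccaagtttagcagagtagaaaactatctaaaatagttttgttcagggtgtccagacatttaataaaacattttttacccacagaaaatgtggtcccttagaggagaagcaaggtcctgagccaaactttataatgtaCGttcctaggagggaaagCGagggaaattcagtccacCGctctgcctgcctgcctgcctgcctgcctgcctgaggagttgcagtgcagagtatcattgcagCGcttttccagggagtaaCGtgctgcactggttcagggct

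The 8 promoter windows under the 5 lower peaks had a median of 63.7% G and C and 24.5 CG pairs. The 4 windows under the 3 higher peaks had medians of 46.3% and 5, and the 25 windows under peaks not called had 42.7% and 4. The letters GGGCGG, searched on both strands, stood in all 8 windows under lower peaks, in none of the 4 under higher peaks, and in 16% of those under peaks not called. Among all 35116 RefSeq promoter windows of the same length, 45.0% held these letters, which overlap a CG pair. Neighbouring windows under 1 peak share bases, and a match of letters is not a site in use. The split also rests on calls that were mostly weak. Those of the lower peaks over LINC01902, over MIR4458HG and LINC02226, over LINC02684 and over LOC107986997 were lost when single libraries were left out. So was that of the higher peak over LETR1, as given further on.

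Of the libraries, vehicle 4 and sorbitol 4 stood apart from their groups, and they did so most in repeat-rich sequence. Over 477 peaks on unplaced contigs, the median deviation from the mean of the libraries was -0.07, -0.21, -0.29 and 0.34 (log2) in vehicle libraries 1 to 4 and 0.20, 0.08, 0.28 and -0.30 in sorbitol libraries 1 to 4. Peaks in the long gene-free stretches had deviations of -0.15, -0.26, -0.37 and 0.37 and 0.36, 0.14, 0.30 and -0.31. Those of the arm desert peaks were -0.13, -0.15, -0.07 and -0.06 and 0.16, 0.11, 0.15 and 0.10. On contigs and in gene-free stretches vehicle 4 was thus above and sorbitol 4 below its group, and the groups overlapped, whereas on the arms every sorbitol library lay above every vehicle library. The labels give no batch for this pattern.

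Arm desert peaks took a larger share of the counts after sorbitol. Of the counts on chromosomes 1 to 12 and 14 to 22, they held 1.09, 1.08, 1.14 and 1.12% in the vehicle libraries and 1.37, 1.33, 1.38 and 1.35% in the sorbitol libraries. The means were 1.11% ± 0.0302 and 1.36% ± 0.0240 (SD, n = 4 each), a difference of 0.247 percentage points without overlap of the groups. For all desert peaks the shares were 2.82, 2.72, 2.61 and 3.42% in the vehicle libraries and 3.73, 3.40, 3.63 and 2.89% in the sorbitol libraries. Their means of 2.89% ± 0.363 and 3.41% ± 0.373 differed by 0.518 percentage points, and the groups overlapped (two-sided exact permutation test, p = 0.0857, where 4 against 4 cannot go below 0.0286). Without the 2 libraries numbered 4 the difference was 0.869 points (exact p = 0.1, the smallest that 3 against 3 can give). The peaks of the long gene-free stretches held 0.947, 0.857, 0.776 and 1.45% in the vehicle libraries and 1.44, 1.20, 1.35 and 0.807% in the sorbitol libraries, so that vehicle 4 was the highest of all and sorbitol 4 was below vehicle 1. The ribosomal RNA window held 0.705% ± 0.0522 with vehicle and 0.780% ± 0.0662 with sorbitol, and its groups also overlapped.

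**Figure D1:**
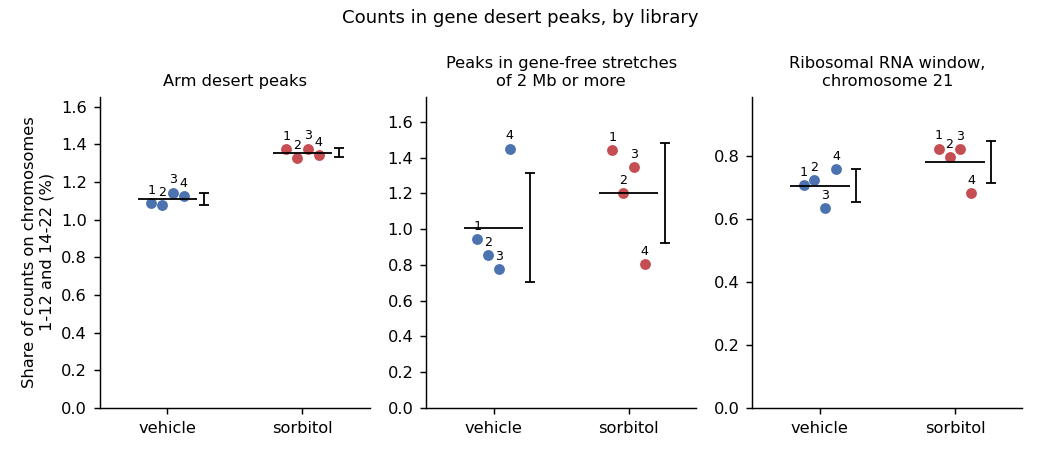
Share of the counts on chromosomes 1 to 12 and 14 to 22 (percent, y axis) held by 3 kinds of desert peaks, 1 point per library, numbered by replicate, with the group mean (line) and SD (bar, n = 4). The arm desert shares lie between 1.08% and 1.14% with vehicle and between 1.33% and 1.38% with sorbitol, while libraries 4 cross in the gene-free stretches.

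Peak by peak, desert peaks were called higher far more often than lower. Each peak was tested with edgeR's quasi-likelihood test, and p-values were adjusted (Benjamini-Hochberg) over all 129487 tested peaks, of which 4791 were desert peaks. At an adjusted p under 0.05, 796 desert peaks (16.6%) were higher after sorbitol, where the background over all peaks was 16.0%, and 150 (3.13%) were lower, where the background was 13.1%. Changes of at least 2-fold were called in 240 desert peaks upward (5.01%, background 5.27%) and in 22 downward (0.459%, background 0.881%). The share called higher was thus near the background, and the share called lower was below it. In 719 desert peaks (15.01%, background 17.3%) all sorbitol libraries were above all vehicle libraries, and in 104 (2.17%, background 9.47%) all were below. The median log2 fold change was 0.16 for desert peaks and 0.01 for all peaks.

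Of the 3079 tested arm desert peaks, 683 (22.2%) were higher and 114 (3.70%) lower, and their median log2 fold change was 0.16. Without vehicle 3 the count of lower peaks was 75, and leaving out any other 1 library gave 80 to 104. The arm held 238 of the 240 peaks with a 2-fold rise. In the long gene-free stretches 89 of 1536 peaks (5.79%) were higher and 2 lower, and their median was 0.18, close to that of the arms. That count rested on single libraries: it was 17 without vehicle 3 and 409 without vehicle 4, and 18 to 266 without any other 1 library. Without both libraries numbered 4, 677 peaks of these stretches (44.1%) were higher and the median was 0.50, while the arm count was 624 with a median of 0.17. The part of the library pattern on contigs in the count for the gene-free stretches was not tested.

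In the antigen receptor segments 2 peaks were higher and 15 lower of 89 (16.9% lower, background 13.1%), and their median log2 fold change was -0.21. The count of higher peaks rested on libraries 4: without vehicle 4 it was 12, and without both libraries numbered 4 17 peaks were called higher and 14 were called lower (median -0.14). Of the 41 in the heavy chain locus 12 were lower and 1 was higher (median -0.39), against 2 lower and 0 higher of 33 in the kappa locus (median 0.01). With factors computed from peaks at the ends of coding genes the median of the segment peaks was 0.00208, and 7 were lower. In the ribosomal RNA window 22 of 87 peaks were higher and 19 lower, and the median was 0.10. The 33 of these with at least 50 CPM in vehicle included 3 higher and 4 lower, and the weaker 54 included 19 and 15. The count of higher peaks there was 7 to 14 without vehicle 1, 2 or 3 or sorbitol 1, 2 or 3 (7 without sorbitol 3), while leaving out any 1 library gave 18 to 20 lower peaks.

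Among strong peaks, arm desert peaks differed from peaks in windows with a coding gene. Desert peaks were weak, with a median of 2.28 CPM in vehicle against 2.94 in windows with a coding gene, and arm desert peaks had 1.91. All peaks were therefore sorted into 10 equal groups by mean CPM, first over the 8 libraries, sorbitol included. In the weakest decile, 23.7% of 507 arm desert peaks were higher and 2.76% lower, close to 25.9% and 3.34% in windows with a coding gene. In the middle, at decile 5, the shares higher were 18.0% and 14.1%. At decile 8 they were 30.7% of 199 and 12.9%, and at decile 9 they were 43.1% of 174 and 14.2%. In the strongest decile 34 of 65 arm desert peaks (52.3%) were higher and 8 lower, and the median log2 fold change was 0.27. In windows with a coding gene the same decile had 8.06% higher and 45.5% lower, and its median was -0.19. Sorted by the vehicle libraries alone, whose values also enter the fold change, the pattern in the arms was another. There 51.6% of arm desert peaks were higher in the weakest decile, close to 56.9% in windows with a coding gene, 12.3% to 18.9% in deciles 2 to 7 and 30.6% and 35.7% in deciles 8 and 9. In the strongest decile 17 of 48 (35.4%) were higher and 9 (18.8%) were lower (median log2 fold change 0.08), against 5.91% higher and 49.4% lower in windows with a coding gene. In deciles 8 to 10, arm desert peaks were thus called higher more often and lower less often than peaks in windows with a coding gene under both sortings, while the rise of the arm share to its highest value in the strongest decile was seen only with sorbitol in the mean. The strength groups were compared by counts alone.

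**Figure D2:**
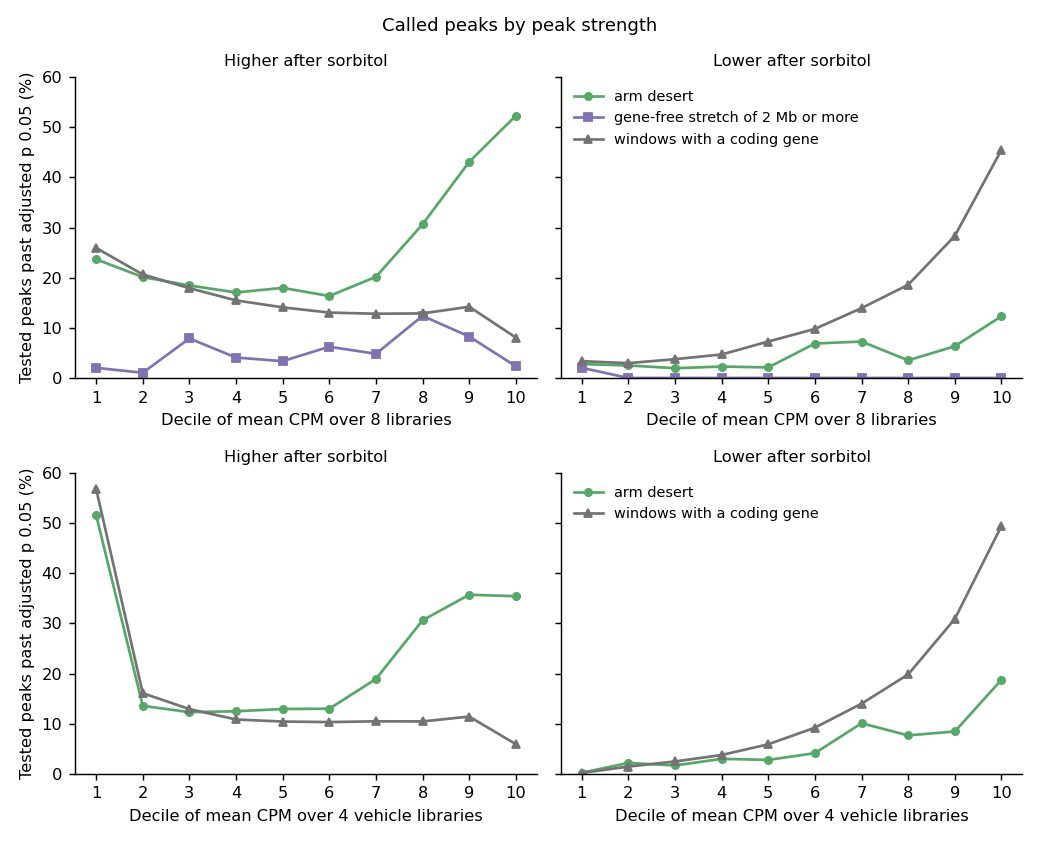
Percent of tested peaks called higher (left) and lower (right) after sorbitol, against the decile of mean CPM (x axis, weakest to strongest) over all 8 libraries (top) or the 4 vehicle libraries (bottom), for arm desert peaks, peaks in windows with a coding gene and, in the top row, peaks in gene-free stretches of 2 Mb or more. The arm desert line ends at 52.3% higher in the top row and at 35.4% in the bottom row, where it starts at 51.6%, and the line of windows with a coding gene ends at 45.5% and 49.4% lower.

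At equal strength, the log2(CPM + 0.5) of arm desert peaks minus that of the peaks in windows with a coding gene, averaged over the deciles, was -0.12, -0.13, -0.08 and -0.11 in the vehicle libraries and 0.03, 0.02, 0.03 and 0.05 in the sorbitol libraries. All sorbitol values lay above all vehicle values, and the mean difference was 0.14. For all desert peaks the values were -0.06, -0.10, -0.12 and 0.12 against 0.16, 0.08, 0.14 and -0.06, a difference of 0.12 with overlapping groups. Against windows with only 1 to 3 coding genes the difference for arm desert peaks was 0.03, with values from -0.06 to -0.04 in vehicle and from -0.03 to -0.02 in sorbitol, which did not overlap. Against arm desert peaks of chromosome 13 it was -0.17 with overlapping groups. The members had been chosen with earlier results known, so no p-value is given for these scores.

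The arm desert values continued a gradient over the number of coding genes in a window. Peaks in windows with 1 coding gene were 21.3% higher and 4.08% lower, those with 2 to 3 genes 22.2% higher and 5.30% lower, those with 8 to 15 genes 13.9% higher and 14.1% lower, and those with 31 or more 4.02% higher and 45.7% lower. Arm desert peaks of all strengths, with 22.2% and 3.70%, were close to the windows with 1 to 3 genes. Among strong peaks they were less alike when sorbitol was included in the sorting. In deciles 8, 9 and 10 of mean CPM over the 8 libraries, 30.7%, 43.1% and 52.3% of arm desert peaks were higher. In windows with 1 to 3 genes the same deciles had 22.4%, 26.6% and 18.1%. A peak that rises after sorbitol moves up in this sorting. Sorted by the vehicle libraries alone, the arm shares in deciles 8, 9 and 10 were 30.6%, 35.7% and 35.4%. The windows with 1 to 3 genes were not sorted in that way, so this difference was seen under 1 sorting only. Arm desert peaks of chromosome 13 had 37.2% higher and 1.17% lower, and a median log2 fold change of 0.42. In deciles 8, 9 and 10 of mean CPM over the 8 libraries, 59.3% of 91, 44.2% of 52 and 66.7% of 9 of them were higher. The high shares among strong peaks were thus not particular to the deserts described here. Within the arm deserts, the distance to the nearest coding gene changed the share little, from 19.2% higher at 250 to 500 kb to 23.7% at 1 Mb or more. The kind of non-coding sequence went with a larger gap: peaks within 1 kb of the end of a non-coding gene were 16.2% higher and 12.5% lower (160 peaks), whereas those inside such a gene but away from its ends were 24.4% higher and 1.96% lower (816 peaks). Where RefSeq lists no gene within 1 kb, 2103 tested arm peaks were 21.8% higher and 3.71% lower.

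By chromosome, the arm desert peaks differed widely. Chromosomes 15 and 5 had the highest median log2 fold changes, 0.36 over 57 peaks and 0.32 over 381. On chromosome 15, 21 peaks (36.8%) were higher and 0 lower, all within the NR2F2 window described further on, and on chromosome 5, 127 (33.3%) were higher and 10 lower. Chromosomes 1 and 3 followed with medians of 0.28 and 0.27, and with 138 of 525 and 118 of 433 peaks higher. Among chromosomes with at least 20 arm desert peaks, chromosomes 11 and 20 had the lowest medians, -0.19 with 2 higher and 4 lower of 44, and -0.15 with 2 higher and 9 lower of 55. Of the 71 desert peaks of chromosome 20, 62 lay in the run at 26 to 30 Mb, which reaches into a long gene-free stretch. The median was above 0 on 10 of the 19 chromosomes with at least 20 arm desert peaks. It was above that of the chromosome's other peaks on 14. Chromosome 17 showed the widest step between its deserts and the rest, with 0.17 over 34 arm desert peaks and -0.31 in windows with a coding gene. Of these 34 peaks, 33 lay in 1 window, at 71 to 72 Mb between KCNJ2 and SOX9, so the step describes that window. On chromosomes 6, 7, 8, 10 and 11 the arm deserts lay below the rest. The share of a chromosome's counts in its desert peaks separated the groups on 6 of 21 chromosomes (3, 4, 6, 9, 15 and 21), where the exact permutation p of 0.0286 gave 0.1 after adjustment over the 21, so no chromosome passed. Chromosome 15 went from 1.17% ± 0.0718 to 1.58% ± 0.0850 (SD, n = 4 each) and chromosome 3 from 2.04% ± 0.0643 to 2.49% ± 0.0580.

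**Figure D3:**
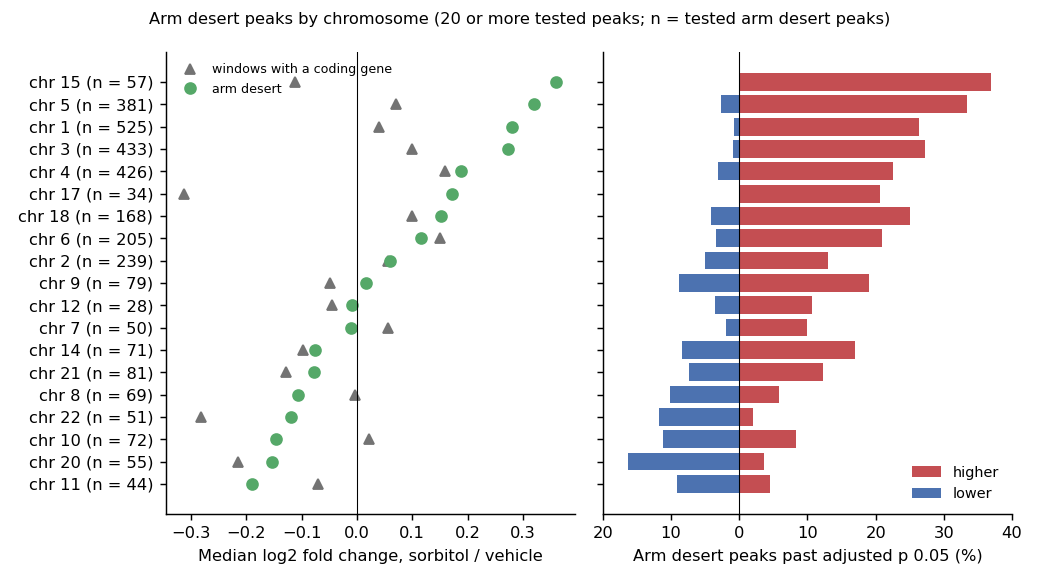
Left, median log2 fold change of arm desert peaks (circles) and of peaks in windows with a coding gene (triangles) per chromosome; right, percent of arm desert peaks called higher (to the right of 0) and lower (to the left). Chromosomes with at least 20 tested arm desert peaks are shown in order of their arm desert median, from 0.36 on chromosome 15 to -0.19 on chromosome 11.

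Counts were also summed over each window and tested in the same way over all 2914 windows of chromosomes 1 to 22 and X. A desert window held a median of 10 peaks (range 1 to 388), against 45 in windows with a coding gene. Of the 246 desert windows, 78 (31.7%) were higher and 30 (12.2%) lower, where 32.9% and 34.9% of all windows were. The 191 windows that held only arm desert peaks split by how many peaks they held: with 10 or more, 71 of 100 windows were higher and 2 lower, and with fewer, 6 of 91 were higher and 25 lower. The number of peaks comes from the same libraries as the window test, so it is not independent of a rise. Windows with a coding gene are not given by number of peaks, and the split is a description only. Among the 51 windows that held peaks of a long gene-free stretch, 1 was higher and 2 were lower. Single peaks showed the same unevenness. Of the 202 windows with arm desert peaks, 105 held at least 1 higher peak, and 18 windows held at least 50% of the 683 higher peaks. The 10 windows with most held 227, and outside them 17.8% of arm desert peaks were higher.

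**Figure D4:**
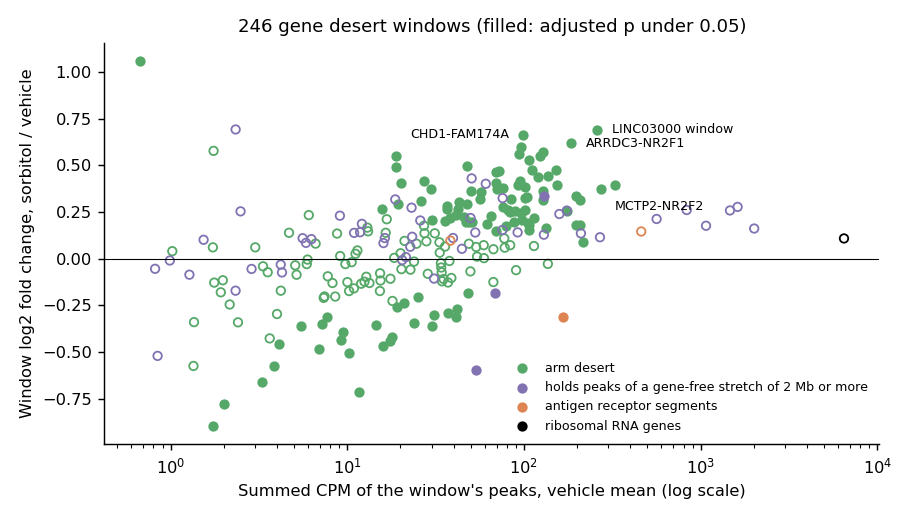
Log2 fold change of the summed counts of each of the 246 desert windows (y axis) against the summed CPM of its peaks in vehicle (x axis, log scale), with filled symbols where the edgeR adjusted p is under 0.05. Windows on chromosome arms with high summed CPM lie mostly above 0, and the ribosomal RNA window, the strongest, is not called. Of the 51 windows that hold peaks of a gene-free stretch, 3 are called.

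The window at 164 to 165 Mb of chromosome 5, between MAT2B (a subunit of methionine adenosyltransferase) and TENM2 (a teneurin, a synaptic adhesion protein), holds the long non-coding gene LINC03000. Its summed peaks had 251, 254, 276 and 259 CPM in the vehicle libraries and 418, 418, 429 and 447 CPM in the sorbitol libraries. The groups did not overlap (log2 fold change 0.69, SE 0.02, edgeR adjusted p = 4.69e-09), and 40 of its 67 peaks were higher and 0 lower. Of these, 4 are given singly further on, and the strongest peak of the window carried 14.3% of the window's counts. The window at 92 to 93 Mb of the same chromosome lies between ARRDC3 (an arrestin-related protein) and NR2F1, an orphan nuclear receptor of neural development. It had 177, 191, 192 and 182 CPM in the vehicle libraries and 288, 289.6, 284 and 302 CPM in the sorbitol libraries (log2 fold change 0.62, SE 0.03, edgeR adjusted p = 1.16e-08), and 20 of its 42 peaks were higher and 0 lower. At 99 to 100 Mb, between the chromatin remodeller gene CHD1 and FAM174A, the sums were 97.7, 99.4, 105 and 95.1 CPM in the vehicle libraries and 161, 154, 165 and 162 CPM in the sorbitol libraries (log2 fold change 0.66, SE 0.03, edgeR adjusted p = 3.56e-08), with 16 of 36 peaks higher and 0 lower.

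On chromosome 15, the window at 95 to 96 Mb lies between MCTP2 and NR2F2, the paralogue of NR2F1 that acts in vessels and many mesenchymal tissues. Its sums were 274, 269, 276 and 268 CPM in the vehicle libraries and 357, 357, 368 and 355 CPM in the sorbitol libraries, again without overlap (log2 fold change 0.37, SE 0.02, edgeR adjusted p = 1.09e-07), and 21 of 56 peaks were higher and 0 lower. Of the 5 windows this one had the smallest fold change and the highest level in vehicle. The window at 80 to 81 Mb of chromosome 1, between the adhesion GPCR genes ADGRL4 and ADGRL2, had 138, 134, 139 and 136 CPM in the vehicle libraries and 192, 185, 190.0 and 191 CPM in the sorbitol libraries (log2 fold change 0.44, SE 0.03, edgeR adjusted p = 1.20e-07), with 16 of 36 peaks higher. In these 5 windows no peak was called lower, and the strongest peak carried between 10.1% and 20.3% of the counts. They kept their direction, with log2 fold changes of 0.27 to 0.59, but not their call when scaled by contig peaks, a scaling that follows libraries 4.

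Only 4 desert windows with at least 10 tested peaks were called lower. The heavy chain window at 106 to 107 Mb of chromosome 14 had 172, 162, 161 and 166 CPM in the vehicle libraries and 146, 136, 136 and 125 CPM in the sorbitol libraries, with no overlap (log2 fold change -0.31, SE 0.05, edgeR adjusted p = 1.61e-04). The other 3 changed little: the log2 fold change was -0.24 at 35 to 36 Mb of chromosome 2, between FAM98A and CRIM1, -0.19 at 26 to 27 Mb of chromosome 20 and -0.18 at 83 to 84 Mb of chromosome 10, between NRG3 and GHITM (edgeR adjusted p = 0.0177, 0.0283 and 0.0343). These 3 calls were lost when single libraries were left out: vehicle 1 or sorbitol 3 on chromosome 2 (adjusted p = 0.0668 and 0.0547), vehicle 1, 2 or 4 or sorbitol 2, 3 or 4 on chromosome 20 (0.0548 to 0.0941), and vehicle 1 or 3 or sorbitol 2 or 3 on chromosome 10 (0.0606 to 0.110).

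The windows with most peaks were not called. Those at 123, 124 and 122 Mb of chromosome 1, in the long gene-free stretch that holds the centromere, held 388, 328 and 202 peaks. The first had 1378, 1279.6, 1176 and 2029 CPM in the vehicle libraries and 2137, 1755, 2016 and 1239 CPM in the sorbitol libraries, with a log2 fold change of 0.26 (SE 0.19, edgeR adjusted p = 0.237). Vehicle 4 exceeded all but sorbitol 1 there, and sorbitol 4 was below vehicle 1. Leaving out vehicle 4 gave 0.47 (adjusted p = 0.0134) and leaving out sorbitol 4 gave 0.40 (0.0401). The window at 58 Mb of chromosome 7 held 88 peaks and had a log2 fold change of 0.14 (SE 0.21), which was 0.54 without both libraries 4. The ribosomal RNA window held 87 peaks and was the strongest desert window, at 6476 ± 464 to 7121 ± 583 CPM (SD, n = 4 each; log2 fold change 0.11, edgeR adjusted p = 0.233). The longest run of adjacent desert windows, 21 windows from 122 Mb of chromosome 1, ends at the histone gene H3-7. It held 924 peaks in 4 windows, 61 of them higher and 0 lower. The other runs of 14 to 17 windows, on chromosomes 14, 9, 15 and 22, held 5, 11, 5 and 59 peaks, with 0, 1, 0 and 2 higher and 0, 0, 0 and 5 lower.

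Deserts were also grouped by the coding genes that border them, from a list of developmental transcription factors and one of adhesion and synaptic genes. Of 67 listed transcription factor genes 12 bordered a run of desert windows, and of 305 arm desert peaks in these 12 runs 87 (28.5%) were higher and 8 lower, median log2 fold change 0.27. The runs named here were chosen after their values had been seen. Those beside NR2F2 and NR2F1 are the 2 windows described above, and the run beside ZEB2, a zinc-finger repressor of neural crest and nervous system development, had 9 of 40 higher and 0 lower, median log2 fold change 0.25. Of the 12 runs 3 held no higher peak: those beside POU3F3 (0 of 7), IRX1 (0 of 7, 1 lower) and BCL11B (0 of 8, 2 lower). Those beside TFAP2A and GATA3 had 2 of 21 and 1 of 15 higher and 1 lower each, and 5 of the 12 runs had a median below 0. Of 68 listed adhesion and synaptic genes 36 bordered 38 runs, and of 799 arm desert peaks there 174 (21.8%) were higher and 25 lower, median log2 fold change 0.17. The run beside ROBO1, an axon guidance receptor, had 19 of 39 higher and 0 lower, median log2 fold change 0.60. Those beside TENM2 and TENM3 had 40 of 80 higher and 0 lower, median log2 fold change 0.66, and 21 of 89 higher and 0 lower, median log2 fold change 0.23. Beside EPHA7, an ephrin receptor, there were 12 of 35 higher and 1 lower, median log2 fold change 0.40. These runs were not typical of the list, since 16 of its 38 runs held no higher peak and 20 had a median below 0. Beside CADM2 and NEGR1, both genes of immunoglobulin-type adhesion proteins, 0 of 36 and 0 of 29 were higher and 1 each lower, and beside NRG3, a neuregulin gene, 0 of 14 were higher and 1 lower, median log2 fold change -0.48. The run between NCAM2 and MRPL39 had 0 of 18 higher and 3 lower, and that between CNTNAP5 and GYPC 0 of 5 higher and 3 lower. In the 1975 tested arm desert peaks beside neither list 422 (21.4%) were higher and 81 lower, median log2 fold change 0.14. The background over all peaks was 16.0% higher and 13.1% lower. The transcription factor runs had a median vehicle level of 2.26 CPM, the adhesion and synaptic runs 1.94 CPM and the peaks beside neither list 1.85 CPM.

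The 6 desert peaks that ranked first by p-value among those that rose at least 2-fold without overlap of the groups were all on chromosome arms, 4 of them in the LINC03000 window. The first, chr5:164326832-164328147, lies inside LINC03000, 807 kb from MAT2B, and had 24.0, 23.3, 25.9 and 23.0 CPM in the vehicle libraries and 52.8, 56.5, 52.8 and 61.2 CPM in the sorbitol libraries. That was a rise from 24.1 ± 1.27 to 55.8 ± 4.00 CPM (SD, n = 4 each; log2 fold change 1.13, SE 0.08, edgeR adjusted p = 2.57e-15). Another peak inside the gene, chr5:164355373-164355605, was weak and had 1.05, 2.18, 2.07 and 2.03 CPM in the vehicle libraries and 5.73, 6.53, 7.63 and 6.13 CPM in the sorbitol libraries (log2 fold change 1.73, SE 0.20, edgeR adjusted p = 1.75e-09). All 8 values of both peaks keep the groups apart, as the choice of these peaks required. The other 2, chr5:164073042-164073818 and chr5:164187500-164188101, lie in the same window outside the gene and rose from 4.65 ± 0.955 to 11.9 ± 1.73 and from 7.76 ± 0.633 to 16.5 ± 1.68 CPM. The peak over the LINC03000 promoter printed above, chr5:164296474-164297297, had 15.7, 16.8, 18.8 and 15.6 CPM in the vehicle libraries and 20.2, 16.2, 22.5 and 22.1 CPM in the sorbitol libraries and did not pass the test (log2 fold change 0.19, SE 0.10, edgeR adjusted p = 0.165).

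On chromosome 3, chr3:106381220-106382090 overlaps the non-coding gene LOC101929485, 512 kb from CBLB, a ubiquitin ligase gene of T cell signalling. It had 11.7, 10.3, 8.98 and 8.74 CPM in the vehicle libraries and 18.7, 25.2, 23.7 and 23.9 CPM in the sorbitol libraries, a rise from 9.92 ± 1.36 to 22.8 ± 2.87 CPM (SD, n = 4 each; log2 fold change 1.12, SE 0.11, edgeR adjusted p = 4.21e-11). The peak chr3:80283726-80284305, in the desert 516 kb from ROBO1, overlaps no RefSeq gene. It had 6.70, 6.09, 7.87 and 6.23 CPM in the vehicle libraries and 17.3, 14.3, 13.8 and 15.4 CPM in the sorbitol libraries, a rise from 6.72 ± 0.805 to 15.2 ± 1.54 CPM (SD, n = 4 each; log2 fold change 1.09, SE 0.12, edgeR adjusted p = 1.27e-09). In both the lowest sorbitol library was above the highest vehicle library, as the choice of these peaks required.

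Of the 6 lower peaks chosen by the same rule, 4 came from other kinds of desert sequence and 2 from chromosome arms. There were 2 in the ribosomal RNA window, chr21:8335684-8336529 and chr21:8152668-8153579, which overlap no listed gene. The first had 5.19, 4.94, 6.71 and 5.90 CPM in the vehicle libraries and 2.86, 2.55, 1.82 and 2.86 CPM in the sorbitol libraries, a fall from 5.68 ± 0.792 to 2.52 ± 0.490 CPM (SD, n = 4 each; log2 fold change -1.25, SE 0.19, edgeR adjusted p = 9.22e-07), and the second fell from 5.78 ± 0.415 to 2.80 ± 0.784 CPM (SD, n = 4 each; log2 fold change -1.13, SE 0.18, edgeR adjusted p = 5.03e-06). In the heavy chain locus chr14:106417469-106417912, within 1 kb of the variable segment pseudogene IGHVIII-38-1, had 1.71, 2.30, 2.62 and 1.63 CPM in the vehicle libraries and 0.174, 0.717, 0.867 and 0.557 CPM in the sorbitol libraries (log2 fold change -1.91, edgeR adjusted p = 2.41e-05), and chr14:106663894-106664358 fell from 4.05 ± 0.714 to 1.93 ± 0.163 CPM. The remaining 2 were arm desert peaks: chr2:242182988-242183668, near the end of chromosome 2 and 280.4 kb from FAM240C, with 8.34, 4.83, 5.65 and 5.69 CPM in the vehicle libraries and 1.48, 2.55, 4.07 and 2.65 CPM in the sorbitol libraries, and chr20:29445064-29445874 on chromosome 20, which fell from 6.58 ± 0.971 to 3.36 ± 0.968 CPM (SD, n = 4 each; log2 fold change -1.06, SE 0.18, edgeR adjusted p = 8.10e-06). The peak on chromosome 20 lies in the run at 26 to 30 Mb, which reaches into a long gene-free stretch. All 6 were below 10 CPM in vehicle, and those in repeated sequence may share reads with copies.

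**Figure D5:**
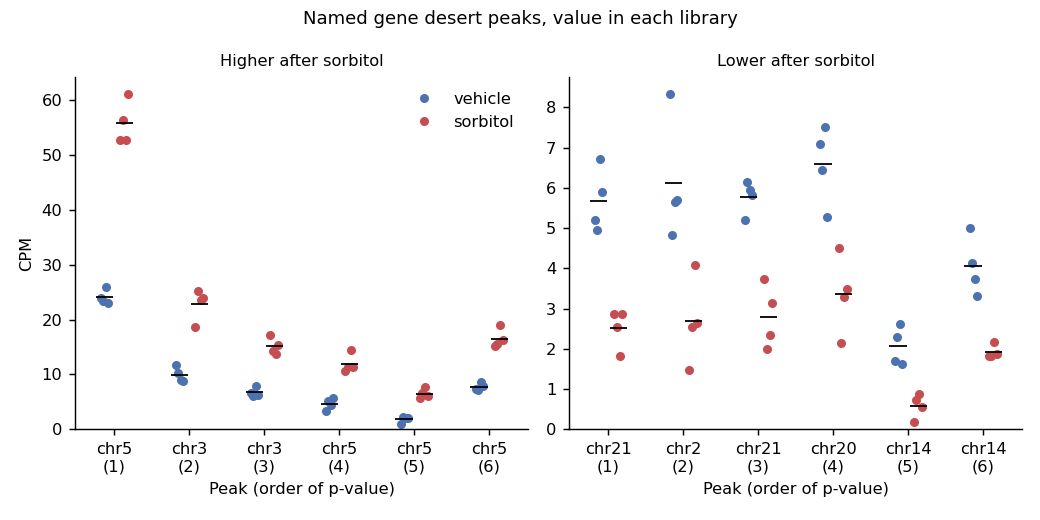
CPM in each library (points; black lines, group means) of the 6 higher (left) and 6 lower (right) desert peaks that ranked first by p-value among changes of at least 2-fold, each panel ordered by p-value. In every pair of columns all 4 vehicle values are apart from all 4 sorbitol values, which the choice of these peaks required.

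The strongest desert peaks did not pass the test. They were 3 over 45S ribosomal RNA genes and 3 in gene-free stretches that hold centromeres. Of the former, chr21:8217486-8220334 (RNA45SN2 and its 28S part) had 621, 651, 583 and 635 CPM in the vehicle libraries and 669, 660.4, 649 and 582 CPM in the sorbitol libraries. Of the latter, chr5:49601222-49602902 on chromosome 5 had 547, 489.6, 436 and 853 CPM in the vehicle libraries and 797, 674, 751 and 435 CPM in the sorbitol libraries. The log2 fold changes of all these peaks were -0.04, 0.11, 0.09, 0.04, 0.16 and 0.07 in order of strength. The calls of this group moved with the scaling: with factors from the ends of coding genes all 3 ribosomal peaks were called higher, at 0.17, 0.25 and 0.29, which for the first is a change of sign. The peak chr5:49601222-49602902 had 0.34 without vehicle 4 (edgeR adjusted p = 0.00180) and 0.25 without sorbitol 4 (0.0431).

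Among the strongest arm desert peaks, chosen after the values had been seen, chr17:22521212-22521582 lies within 1 kb of MTCYBP13, a nuclear copy of the mitochondrial cytochrome b gene. This peak lies shortly before the long gene-free stretch that starts at base 22705637 of chromosome 17. It had 151, 131, 109 and 116 CPM in the vehicle libraries and 172, 158, 169 and 158 CPM in the sorbitol libraries (log2 fold change 0.29, SE 0.08, edgeR adjusted p = 0.00472), and without vehicle 3 the adjusted p was 0.0548. The peak chr15:95556776-95558417, 768 kb from NR2F2, overlaps no gene and had 48.5, 49.8, 50.3 and 43.6 CPM in the vehicle libraries and 67.2, 61.9, 61.7 and 69.1 CPM in the sorbitol libraries (log2 fold change 0.35, SE 0.08, edgeR adjusted p = 6.53e-04). The peaks chr4:180057375-180059799, in the desert before TENM3, and chr2:41840600-41841524, 206 kb from the kinase gene PKDCC, had log2 fold changes of 0.07 and 0.01 and were not called.

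At the promoters of non-coding genes few peaks changed. Of the 30 arm desert peaks over a promoter window, 3 (10%, background 16.0%) were higher and 5 (16.7%, background 13.1%) lower, shares near the background, and the median log2 fold change was -0.00174. The peak chr19:27793105-27794594 spans the divergent starts of LINC00662 and LINC02987 printed above. It had 51.5, 53.9, 54.0 and 51.0 CPM in the vehicle libraries and 34.4, 35.0, 34.2 and 37.1 CPM in the sorbitol libraries, a fall from 52.6 ± 1.59 to 35.2 ± 1.34 CPM (SD, n = 4 each; log2 fold change -0.66, SE 0.08, edgeR adjusted p = 9.48e-09), and was the fourth strongest of the arm desert peaks. The peak over LINC01902, chr18:39841175-39842183, had 32.9, 29.8, 35.3 and 30.2 CPM in the vehicle libraries and 25, 28.1, 29.0 and 30.8 CPM in the sorbitol libraries (log2 fold change -0.26, SE 0.09, edgeR adjusted p = 0.0209), and the groups overlapped. Its call was lost without vehicle 1, vehicle 3 or sorbitol 1 (adjusted p = 0.0602, 0.103 and 0.0864), and with factors from the ends of coding genes (log2 fold change -0.06). The other lower promoter peaks, at MIR4458HG and LINC02226 (-0.27), LINC02684 (-0.83) and LOC107986997 (-0.20), were likewise lost when single libraries were left out. Those libraries were vehicle 1 or 3 or sorbitol 1 or 3 for the first, vehicle 2 or sorbitol 1, 2 or 4 for the second and vehicle 1, 2 or 3 or sorbitol 1 or 2 for the third.

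Of the higher promoter peaks, 2 lay in the NR2F2 window. LETR1, a long non-coding gene, had at chr15:95325858-95327362 16.4, 16.4, 15.3 and 18.4 CPM in the vehicle libraries and 19.8, 23.8, 22.5 and 20.5 CPM in the sorbitol libraries (log2 fold change 0.30, SE 0.10, edgeR adjusted p = 0.0170), without overlap, and the call was lost without vehicle 3 or sorbitol 2 (adjusted p = 0.0733 and 0.0844). LOC124903582 had at chr15:95911617-95912715 13.9, 12.1, 13.4 and 13.3 CPM in the vehicle libraries and 15.4, 19.0, 20.4 and 17.6 CPM in the sorbitol libraries (log2 fold change 0.38, SE 0.11, edgeR adjusted p = 0.00550). The third lay over an internal start of MIR99AHG, the host gene of a let-7, miR-99 and miR-125 cluster, at chr21:16070297-16070624, and went from 1.26 ± 0.271 to 2.70 ± 0.488 CPM (SD, n = 4 each; log2 fold change 1.03, SE 0.26, edgeR adjusted p = 0.00217). A further MIR99AHG start, at chr21:16420046-16420595, had a log2 fold change of 0.38 and did not pass (edgeR adjusted p = 0.0586).

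Arm desert peaks at or near the microRNA genes MIR663A, MIR1269A, MIR7977 and the pair MIR5583-1 and MIR5583-2 were not called. Over all peaks 16.0% were called higher. Near a microRNA gene 1 arm desert peak was higher: chr6:140205779-140206485, 831 kb from CITED2, a transcriptional co-regulator gene. It lies beside MIR3668, whose mature microRNA is encoded at chr6:140205260-140205280 on the plus strand (RefSeq; seed, bases 2 to 8, in capitals), and does not cover it.
hsa-miR-3668: aAUGUAGAgauugaucaaaau
The peak had 1.77, 2.59, 2.47 and 3.05 CPM in the vehicle libraries and 6.25, 4.46, 4.68 and 4.74 CPM in the sorbitol libraries, a rise from 2.47 ± 0.527 to 5.03 ± 0.820 CPM (SD, n = 4 each; log2 fold change 0.94, SE 0.19, edgeR adjusted p = 2.08e-04). All sorbitol values were above all vehicle values.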

How the data were processed

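Omni-ATAC libraries from 50000 HEK293 cells each were read from both ends over 75 bases, per the labels' protocols. The authors deposited 1 table of raw counts per peak and library (129536 peaks, 8 libraries). It was made with Trim Galore 0.6.10, BWA 0.7.17, SAMtools 1.22, Picard, MACS2 2.2.9.1, bedtools, deepTools 3.5.4 and DESeq2 among the tools and on GRCh38, per the submitters' processing notes, which give no order. Whether reads or fragments were counted, and how reads with several matches were placed, is not given in the sources used here, and both bear on satellite and ribosomal DNA.

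Starts reach 0 in the table, so they were read as 0-based and printed from 1. Windows came from the RefSeq gene table of GRCh38.p14. That table lists some genes of extra scaffolds under their chromosome, which sets the outer ends of desert runs on chromosomes 14, 15 and 22. Counts were fitted with edgeR 4.0.16 (R 4.3.3; TMM factors, filterByExpr with a minimum count of 10 and total of 15, glmQLFit and glmQLFTest, treatment as the 1 term), per peak and per window, with Benjamini-Hochberg adjustment over all 129487 tested peaks or 2914 windows and a threshold of 0.05. CPM were computed from library totals without the TMM factors, so a ratio of printed CPM can differ from the fold change of the fit. SE came from the fold change and the F statistic. Fits were tested on simulated data. Shares of counts were compared by exact permutation tests. A test planned for the strength-matched score is not given. Alternatives used other scalings, filters, windows and sets of libraries, DESeq2 1.42.0 and a loess offset. Libraries with the same replicate number were not treated as pairs (correlations of deviations over desert peaks from -0.44 to -0.03).

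Named peaks were, in each direction, the 6 smallest p-values among called 2-fold changes without overlap, and the 6 strongest in vehicle. Named windows were the 5 with most peaks and, in each direction, the 5 with the smallest p-values among called windows with at least 10 tested peaks. Gene lists, members and this rule were chosen with earlier results of these data known. The division of desert peaks into kinds, the promoter peaks and the strongest arm peaks were chosen after the data were seen. Counts without molecular identifiers are not independent molecules.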

Additional observations from a re-analysis of the deposited data

Results flagged for a closer look

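Within the groups of 4 libraries, a value far from its group was looked for in each named peak and window. Of 170 groups, 7 held a library whose gap to the nearest other exceeded Dixon's 95% limit for 4 samples, where chance gives about 8.5. In the LINC03000 peak chr5:164355373-164355605, vehicle 1 had 1.05 CPM and the other vehicle libraries 2.03 to 2.18. In the heavy chain peak chr14:106663894-106664358, sorbitol 3 had 2.17 CPM against 1.82 to 1.88. In the peak over RNA45SN1 at chr21:8444746-8446996, sorbitol 4 had 478.6 CPM against 538 to 547, and in the peak at chr21:8435003-8435435 over the same gene it had 55.3 against 65.9 to 67.4. In the promoter peak of LINC02372 or LOC105370061 at chr12:126874429-126874829, sorbitol 2 had 2.55 CPM against 3.56 to 3.62. In the peak beside MIR3668, chr6:140205779-140206485, sorbitol 1 had 6.25 CPM against 4.46 to 4.74. In the window at 83 Mb of chromosome 10, sorbitol 2 had 39.6 CPM against 44.0 to 44.5. The 2 flags of sorbitol 4 are both in ribosomal DNA.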

How the results depend on the processing

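In the refits no desert peak called in the main analysis was called in the opposite direction. Of the 796 higher and 150 lower peaks, 327 and 58 were also called with factors from contig peaks, 796 and 52 with factors from the ends of coding genes and 651 and 115 without both libraries numbered 4. The number higher was 1550 with factors from gene ends, 327 from contig peaks, 396 when a mean of 50 or more counts was required, 1356 without both libraries 4, 436 at an adjusted p under 0.01, 85 in windows with no RefSeq gene of any kind and 127 where the neighbouring windows also lack coding genes. The number lower was 98 with library totals, then 52, 58 and 58 under the first 3 of those settings, 69 at 0.01, and 2 and 12 under the last 2. The higher share of calls was 84.1%, but 96.8% with factors from gene ends and 91.3% with library totals. Factors from gene ends moved the median of all peaks from 0.01 to 0.22 and that of arm desert peaks from 0.16 to 0.37. Windows higher numbered 78, but 0 with contig factors, 122 without both libraries 4, and 1 and 7 under the last 2 window definitions. Windows lower numbered 30, but 14 with gene-end factors, 1 with contig factors, 17 at 0.01, and 0 and 2 under those definitions. The narrower definitions hold fewer peaks. For the other settings the cause was not tested. The contig factors and 3 comparisons with arm peaks were added after seeing the data.

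The share of counts in arm peaks alone differed by 0.247 points (exact permutation p = 0.0286, the smallest these libraries allow). The arm peaks were split off after the data had been seen, so this was not a planned test. Arm peaks minus chromosome 13 desert peaks at equal strength had the opposite sign, -0.17. The median of the segment peaks changed sign with gene-end factors (0.00208) and with the filter at 50 counts (0.0854). So did the ribosomal peak at 8217486 of chromosome 21 (0.17 with gene-end factors, 0.23 with the loess offset) and the peak over LOC107986997 (0.00896 and 0.0107). Without any 1 library (each left out in turn) there were 586 to 1110 peaks higher, 106 to 139 lower, 75 to 103 windows higher and 24 to 26 lower, with a share difference of 0.414 to 0.695 points (exact permutation p = 0.0571 to 0.2) and a strength-matched difference of 0.10 to 0.18. With the replicate number as a block there were 695 peaks higher and 128 lower, 76 windows higher and 24 lower, and a share difference of 0.518 points (exact sign-flip permutation p = 0.25, where 4 pairs cannot go below 0.125). It moved the count of higher peaks in the gene-free stretches from 89 to 47 and the adjusted p of the window at 26 Mb of chromosome 20 to 0.0549. The block kept 691 of the higher and 128 of the lower peaks. A block from the leading digit of the library name gave 758 and 143 of them. Repeated sequence and libraries 4 limit the counts near centromeres, and depth limits the weakest peaks.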

Other observations

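Pseudogenes, non-functional copies of genes, overlapped or lay within 1 kb of 71 arm desert peaks, of which 10 (14.1%) were higher and 5 lower, and the median log2 fold change was 0.05. Long non-coding genes did so for 913, of which 215 (23.5%) were higher and 34 lower, and the median was 0.18. The difference between these groups was not tested. In the ribosomal RNA window the peak over the promoter window of LOC124904992, chr21:8107417-8108789, had 89.3, 93.8, 100.04 and 86.3 CPM in the vehicle libraries and 50.6, 53.7, 48.6 and 52.4 CPM in the sorbitol libraries. It fell from 92.3 ± 5.99 to 51.3 ± 2.19 CPM (SD, n = 4 each; log2 fold change -0.93, SE 0.08, edgeR adjusted p = 1.76e-13) without overlap of the groups. The peak over MIR663A on chromosome 20 and the peaks within 1 kb of MIR1269A on chromosome 4 and MIR7977 on chromosome 3 had log2 fold changes of -0.09, -0.04 and -0.11, and none passed the test (edgeR adjusted p = 0.786, 0.941 and 0.608). The peak near MIR5583-1 and MIR5583-2 on chromosome 18 had a log2 fold change of 0.41 and did not pass either (edgeR adjusted p = 0.149).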
